A study of Homo sapiens with 34 samples.

Results

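The 44 genes described here are interferon-stimulated genes, the antiviral and regulatory genes that cells transcribe when interferon signals. They were taken by symbol from a list of such genes, and all 44 were rows of a count table of 26336 genes. Levels were read in 34 RNA-seq libraries from 4 human prostate lines. RWPE is non-tumorigenic prostate epithelium. The study takes LNCaP for early adenocarcinoma and the lines VCaP and MDAPCa2a for metastases to bone. The culture surface was plastic or a coating of amorphous calcium phosphate (ACP), meant to resemble bone mineral, with or without androgen.

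The libraries formed 17 groups, most of 2 libraries. On plastic, each line had a control medium group, and LNCaP, VCaP and MDAPCa2a also had a group in stripped medium, whose serum had lost its steroids by treatment with charcoal and dextran. On ACP, RWPE, LNCaP and VCaP had a control medium group, the 3 cancer lines had a stripped group, and all 4 lines had an androgen group. The androgen was labelled 100 mM and was named DHT in the titles and testosterone in the treatment labels, so it is called androgen here. RWPE on ACP with androgen had 3 libraries, and VCaP on plastic in stripped medium had 1 library and therefore no replicate. Groups other than plastic control were labelled day 4, and the plastic control groups were labelled as continuous culture. RWPE control medium was a serum-free keratinocyte medium with EGF and pituitary extract, whereas the protocol's androgen medium contained stripped serum. RWPE had no stripped group, so in that line serum and androgen changed together and cannot be told apart. For MDAPCa2a the plastic, but not the ACP, carried an FNC attachment coating. The labels do not say whether replicates came from separate cultures, so the p-values measure the spread between these libraries, which may be technical.

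Interferons are secreted proteins that bind receptors on the cell surface. The receptors for type I interferon (IFNAR1 with IFNAR2) and for type III interferon (IFNLR1 with IL10RB) act through the kinases JAK1 and TYK2, which phosphorylate STAT2 and other factors. STAT2 and IRF9 are parts of a complex that binds the interferon-stimulated response element in promoters. Interferon gamma acts through another element, GAS. Several interferon-stimulated genes are themselves parts of the pathway, among them STAT2, IRF9, IRF7 and the RNA sensors, and epithelial cells can express the set at a steady level without infection.

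The promoters show the element that many members share. RefSeq promoter windows (GRCh38.p14, from 250 bases before to 50 bases after the annotated start) were matched for 36 of the 44 members, DDX58 under its newer name RIGI. The core of the response element, GAAANNGAA on either strand, occurred in 24 of the 36 windows (66.7%) and in 8.11% of 35116 windows of all genes, and 16 of the 36 held more than 1 match. The GAS pattern TTCNNNGAA occurred in 10 of 36 (27.8%) against 7.66% of all windows, and a GAS match may overlap a match of the first pattern. Among the windows with a match, 4 with the widest spread in level between the lines on ACP with androgen are shown. Spread is the highest line mean over the lowest, and it rests in part on levels near 0. For IFI27 and IFI44L the lowest line was MDAPCa2a, at 0 and 0.0505 CPM. For IFI27 the highest was VCaP, at 0.563 and 11.8 CPM. Each run holds the 250 bases before the start, 5′ to 3′ on the gene's strand, with matches to GAAANNGAA or its reverse complement in capitals. All 4 genes lie on the plus strand, at chr10:89392373-89392622 (IFIT1), chr1:78620198-78620447 (IFI44L), chr11:313790-314039 (IFITM1) and chr14:94110486-94110735 (IFI27).
IFIT1: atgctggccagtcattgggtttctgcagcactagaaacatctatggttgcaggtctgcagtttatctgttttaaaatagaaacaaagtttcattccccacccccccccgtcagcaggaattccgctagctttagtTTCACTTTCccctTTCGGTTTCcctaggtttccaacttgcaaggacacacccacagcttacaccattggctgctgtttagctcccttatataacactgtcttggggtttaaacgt
IFI44L: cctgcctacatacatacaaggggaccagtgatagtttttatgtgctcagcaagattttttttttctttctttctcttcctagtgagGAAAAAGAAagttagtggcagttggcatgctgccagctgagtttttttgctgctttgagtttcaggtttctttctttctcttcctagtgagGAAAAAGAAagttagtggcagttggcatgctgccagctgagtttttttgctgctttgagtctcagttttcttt
IFITM1: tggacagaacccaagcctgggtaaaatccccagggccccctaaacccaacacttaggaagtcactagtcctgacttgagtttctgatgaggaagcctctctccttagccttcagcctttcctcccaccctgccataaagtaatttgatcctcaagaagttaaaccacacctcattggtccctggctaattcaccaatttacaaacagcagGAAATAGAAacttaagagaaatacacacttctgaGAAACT
IFI27: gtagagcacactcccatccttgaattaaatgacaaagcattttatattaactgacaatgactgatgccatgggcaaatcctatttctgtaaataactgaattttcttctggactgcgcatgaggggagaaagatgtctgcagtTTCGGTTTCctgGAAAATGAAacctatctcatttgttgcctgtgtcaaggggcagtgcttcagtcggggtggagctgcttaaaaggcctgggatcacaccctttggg
The first bases of the matches lie 115 and 102 bases before the start in IFIT1, 164 and 73 in IFI44L, 40 and 6 in IFITM1, and 107 and 95 in IFI27. The second match in IFITM1 runs past the start and is shown in part. In IFI27 the 2 matches are on opposite strands, and in IFIT1 both read on the minus strand. A match describes the letters of the window and was not a measurement of binding.

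Libraries held from 15.4 M to 44.8 M counted reads. Depth was greater in the 8 plastic control libraries, at 34.9 M or above, than in most of the other 26, which reached 37.0 M. In RWPE the plastic control libraries also held liver transcripts, at a summed 14.3 to 15.4 CPM against 0.0681 to 0.536 CPM on ACP in control medium. In LNCaP these sums were 13.1 to 19.0 CPM against 1.90 to 3.68 CPM, and in VCaP 71.0 to 159 CPM against 157 to 263 CPM. In MDAPCa2a they were 6.87 to 12.6 CPM in plastic control against at most 0.166 CPM on plastic in stripped medium. For every comparison with plastic control, such library differences and the condition cannot be told apart. The lines carried their markers: the basal markers KRT5, KRT14 and TP63 summed to at least 12537 CPM in RWPE on ACP in control medium and to 7.01 to 13.2 CPM in VCaP on ACP in stripped medium, where the luminal markers summed to 2269.8 CPM or more. In the genes described here, androgen library 2 of RWPE and androgen library 2 of VCaP stood apart from their replicates, and the main results that rest on them are given with and without them. At least 1 read was counted in every library for 32 of the 44 members. Levels are given as CPM, counts scaled to a common library total, after correction by TMM factors over all libraries. Changes within a line are log2 fold changes ± SE from edgeR's quasi-likelihood test, called at a Benjamini-Hochberg adjusted p below 0.05 over all genes tested.

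**Figure D1:**
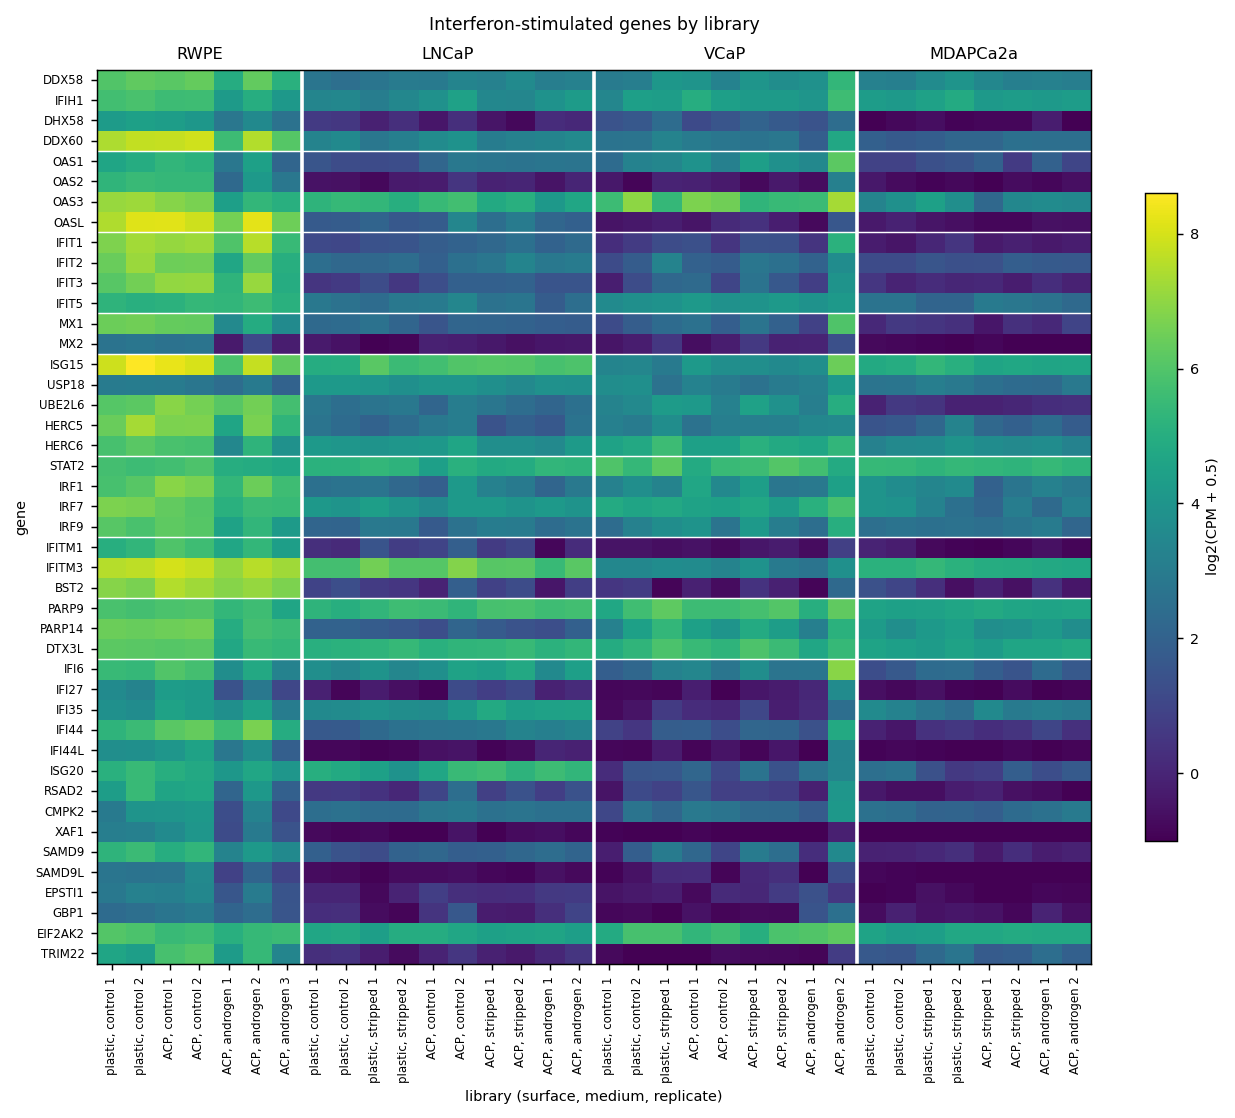
Levels of the 44 members (rows, grouped by role) in the 34 libraries (columns, grouped by line), as log2(CPM + 0.5). The 7 RWPE libraries are the brightest block for most members, RWPE androgen libraries 1 and 3 are dimmer than the other RWPE libraries, and androgen library 2 of VCaP stands out within its line.

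RWPE held the set at the highest level of the 4 lines. The mean over a line's libraries was highest in RWPE for 38 of the 44 members, in LNCaP for 3 (USP18, IFI35 and ISG20), in VCaP for 3 (STAT2, PARP9 and EIF2AK2), and in MDAPCa2a for 0. In 17 members all 7 RWPE libraries lay above all 27 libraries of the other lines, and this held for 10.1% of the 13739 genes with a mean of at least 1 CPM. These 17 included the RNA-binding proteins IFIT1, IFIT2, IFIT3 and IFIT5, the RNA sensors DDX60 and DHX58, and all 3 membrane proteins that block virus entry or release, IFITM1, IFITM3 and BST2. BST2, the tether that holds budding virus on the cell, ranged from 103 to 181 CPM in RWPE, 0.242 to 3.29 in LNCaP, 0.0433 to 4.34 in VCaP and 0.161 to 2.11 in MDAPCa2a. OASL, a catalytically inactive relative of the OAS enzymes, ranged from 88.2 to 295 CPM in RWPE, 2.65 to 10.1 in LNCaP, 0.0865 to 2.54 in VCaP and 0.0581 to 0.441 in MDAPCa2a. For both genes the RWPE libraries did not overlap with those of any other line. The 3 cancer lines overlapped in BST2, whereas all LNCaP libraries lay above those of VCaP and MDAPCa2a in OASL.

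The line comparisons were tested in 2 conditions that share no library. On plastic in control medium, 39 of 44 members differed between LNCaP and RWPE, 1 higher (USP18) and 38 lower, where 57.4% of all genes were called. Between VCaP and RWPE 40 differed, 1 higher (USP18) and 39 lower (62.4% of genes), and between MDAPCa2a and RWPE 40 were lower and 0 higher (56.7% of genes). The median log2 difference from RWPE over the members was −3.90 in LNCaP, −4.42 in VCaP and −4.27 in MDAPCa2a, while that over all genes was 0.01, 0.04 and −0.0026. On ACP with androgen, where the protocol gives stripped serum, 32 members differed in LNCaP (2 higher, 30 lower; 66.9% of genes), 26 in VCaP (5 higher, 21 lower; 67.4%) and 39 in MDAPCa2a (0 higher, 39 lower; 64.0%). The share of members called was above that of all genes in LNCaP (72.7%) and MDAPCa2a (88.6%) and below it in VCaP (59.1%). The VCaP share depends on VCaP androgen library 2. The corresponding medians were −2.41, −1.10 and −3.32, against −0.05, −0.04 and −0.09 over all genes. The VCaP median was −2.43 without VCaP androgen library 2, −0.21 without VCaP androgen library 1 and −0.42 without RWPE androgen library 2. With 3 members that had 0 reads in MDAPCa2a set at their bounds, its median was −3.16. Line and growth medium differ together between RWPE and the cancer lines and cannot be told apart.

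**Figure D2:**
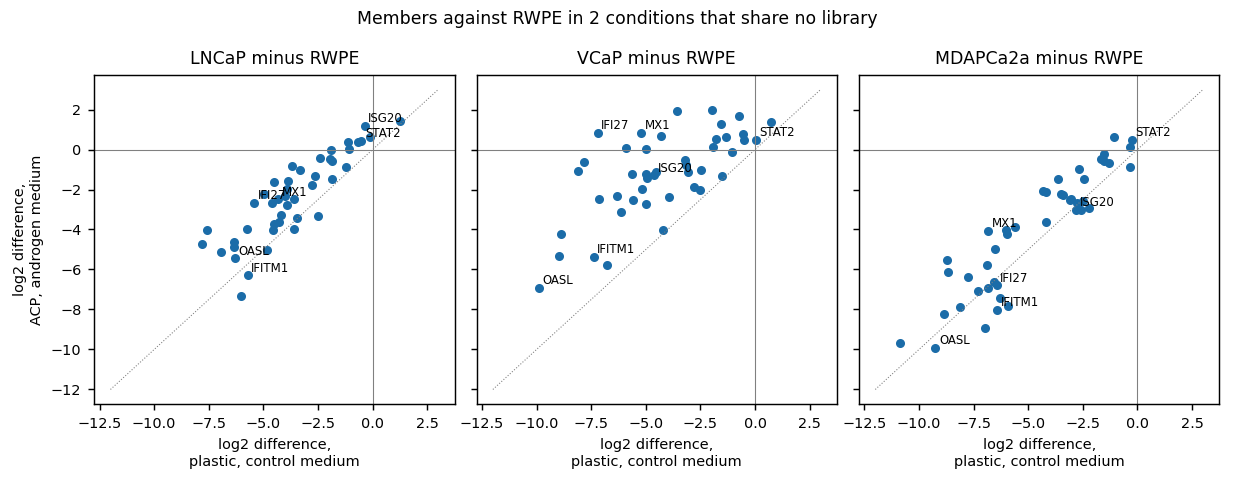
Each point is 1 member, with its log2 difference from RWPE on plastic in control medium (x axis) and on ACP in androgen medium (y axis), for LNCaP, VCaP and MDAPCa2a. The dotted line marks equal differences; points above it are members whose deficit against RWPE was smaller on ACP with androgen, and points of VCaP spread farthest from it.

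Among the differences on ACP with androgen, IFITM1 was lower than in RWPE by a log2 difference of −6.29 ± 0.64 in LNCaP (adjusted p = 5.37e-09), −5.37 ± 0.61 in VCaP (3.02e-08) and −8.02 ± 0.79 in MDAPCa2a (3.10e-09). OASL was lower by −5.44 ± 0.65, −6.92 ± 0.73 and −9.91 ± 0.93 in the same order. With 1 library left out, every one of these calls held, while IFITM1 ran from −8.62 to −5.47 in LNCaP, −7.68 to −4.51 in VCaP and −9.05 to −7.36 in MDAPCa2a. OASL ran from −5.64 to −4.56, −10.70 to −5.97 and −10.10 to −9.02, and the lowest VCaP value of both genes came without its androgen library 2. USP18, the protease that removes ISG15 and dampens the type I receptor, went the other way in LNCaP and VCaP. It measured 4.88, 7.05 and 3.56 CPM in RWPE, 14.1 and 13.6 CPM in LNCaP and 8.57 and 17.8 CPM in VCaP, both called higher. The transcription factor STAT2 was called in none of the 6 comparisons with RWPE, and it ranged from 25.7 to 60.8 CPM in RWPE, 20.7 to 40.2 in LNCaP, 28.9 to 71.9 in VCaP and 37.1 to 42.8 in MDAPCa2a.

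Some members were close to silent in MDAPCa2a. Its mean lay under 0.5% of the highest line's mean in 7 members (OAS2, OASL, IFIT1, IFITM1, IFI44L, XAF1 and SAMD9L), and at such levels reads carried over from other libraries were not tested. In VCaP 1 member (OASL) lay under that limit, and in LNCaP 0. XAF1, an antagonist of apoptosis inhibitors, had 0 reads in all 8 MDAPCa2a libraries. It was low in the other cancer lines too, with line means of 0.0733 CPM in LNCaP and 0.0523 CPM in VCaP against 7.93 CPM in RWPE. A count of 0 was treated as allowing up to 3 reads over a group, 0.0429 CPM on plastic in control medium, so XAF1 was at least 195-fold lower there than in RWPE (8.38 CPM). On ACP with androgen the floor was 0.0805 CPM, which made XAF1 at least 46.5-fold, SAMD9L at least 27.2-fold and MX2 at least 9.84-fold lower than in RWPE. These floors cover counting error only.

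Among the cancer lines on plastic in control medium, VCaP against LNCaP gave 13 of 44 members (6 higher, 7 lower; 52.6% of genes), MDAPCa2a against LNCaP 16 (2 higher, 14 lower; 40.2%), and VCaP against MDAPCa2a 18 (13 higher, 5 lower; 52.4%). These shares of members were below those of all genes. IFI35, which binds other interferon-induced proteins, was lower in VCaP than in LNCaP by −6.18 ± 0.74 (adjusted p = 1.73e-07), with 11.3 and 12.1 CPM in LNCaP and 0.0875 and 0.217 CPM in VCaP. TRIM22, a ubiquitin ligase with antiviral activity, measured 2.68 and 2.51 CPM in MDAPCa2a and 0.0875 and 0 CPM in VCaP, where it was close to 0. On ACP with androgen the counts were 26 for VCaP against LNCaP (23 higher, 3 lower; 56.0% of genes), 19 for MDAPCa2a against LNCaP (2 higher, 17 lower; 45.3%) and 35 for VCaP against MDAPCa2a (32 higher, 3 lower; 51.4%). These VCaP counts rest on its androgen library 2, which stands apart from library 1 as described further on. Without it the median log2 difference over the members went from 1.42 to −0.81 for VCaP against LNCaP. That median went from 2.36 to 0.47 for VCaP against MDAPCa2a and from −1.10 to −2.43 for VCaP against RWPE. With 3 members that had 0 reads in MDAPCa2a set at their bounds, the full-fit median against MDAPCa2a was 1.91, and the 0.47 was not bounded in this way.

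Within RWPE on ACP, the set was lower in androgen medium than in control medium. Of the 44 members 21 fell and 0 rose, against 19.1% of 14293 genes called in either direction and 8.05% called lower. The log2 change was negative in 43 of 44, with a median of −1.02, while the median of all genes was −0.02. Fewer cells that express a gene and less RNA per cell cannot be told apart in these bulk libraries. MX2, which was singled out for this fall when the genes were chosen, is described without a test. It is a dynamin-like GTPase that blocks nuclear entry of some viruses, and it measured 5.65 and 5.99 CPM in control medium and 0.313, 1.70 and 0.361 CPM with androgen. All 3 androgen libraries lay below both controls. Of the other 43 members 20 fell, and 42 had a negative change with a median of −0.97.

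The related GTPase MX1, which traps viral nucleocapsids, measured 79.6 and 78.1 CPM in control medium and 10.9, 29.7 and 11.6 CPM with androgen, a change of −2.16 ± 0.36 (adjusted p = 0.0170). The groups did not overlap, and androgen library 2 stood above the other 2. Of the OAS family, whose active enzymes make the oligoadenylates that switch on RNase L, 3 of 4 members fell. OAS2 measured 41.4 and 41.5 CPM against 4.38, 17.4 and 6.45 CPM (−2.12 ± 0.42, adjusted p = 0.0171). OAS1 measured 39.7 and 35.9 CPM against 6.51, 21.3 and 3.83 CPM (−1.82 ± 0.51, adjusted p = 0.0346). OAS3 measured 116 and 101 CPM against 20.8, 40.8 and 33.2 CPM, and for all 3 genes the androgen libraries lay below both controls. OASL did not pass the test, with 292 and 237 CPM in control medium and 96.0, 295 and 88.2 CPM with androgen, so that androgen library 2 lay above both controls.

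Of the RNA sensors, IFIH1 and DHX58 fell and DDX58 and DDX60 did not pass the test. DDX58, the sensor RIG-I, measured 71.2 and 80.1 CPM in control medium and 30.1, 77.6 and 33.7 CPM with androgen, and library 2 lay between the controls. All 4 IFIT genes, whose products bind viral RNA, missed the threshold. IFIT1 measured 137 and 145 CPM against 61.7, 189 and 43.5 CPM, so that libraries 1 and 3 lay below the controls and library 2 above them. IFIT5 was the 1 member with a positive change, 0.10 on the log2 scale. In the ISG15 system, which attaches this ubiquitin-like protein to others, HERC6 fell and ISG15, USP18, UBE2L6 and HERC5 did not pass the test. ISG15 measured 313 and 261 CPM against 59.3, 215 and 76.5 CPM, with an adjusted p of 0.0715.

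Of the transcription factors, STAT2, IRF9 and IRF7 fell and IRF1 did not pass the test. IRF9, the DNA-binding partner of STAT2, measured 74.3 and 66.1 CPM in control medium and 22.7, 39.8 and 18.4 CPM with androgen, without overlap. STAT2 measured 51.7 and 60.8 CPM against 31.2, 29.4 and 25.7 CPM, and here library 2 was not apart from the others. Of the membrane proteins IFITM1 fell, and IFITM3 and BST2 did not pass the test. PARP14, an ADP-ribosyltransferase, and DTX3L, a ubiquitin ligase that pairs with PARP9, also fell.

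Among the remaining 15 members 7 fell. IFI27, a small membrane-associated protein, measured 19.2 and 18.2 CPM against 2.19, 6.64 and 1.58 CPM (−2.42 ± 0.45, adjusted p = 0.0170). SAMD9L, a translational repressor, changed by −1.94 ± 0.43 (0.0202), the nucleotide kinase CMPK2 by −1.94 ± 0.59 (0.0440), and XAF1 by −1.86 ± 0.46 (0.0242). IFI6 measured 63.0 and 52.4 CPM against 12.5, 27.5 and 8.98 CPM, without overlap, and SAMD9 and IFI44L made up the 7. The response element core was found in 10 of the 17 members with a promoter window that fell and in 14 of the 19 with a window that did not pass the test.

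**Figure D3:**
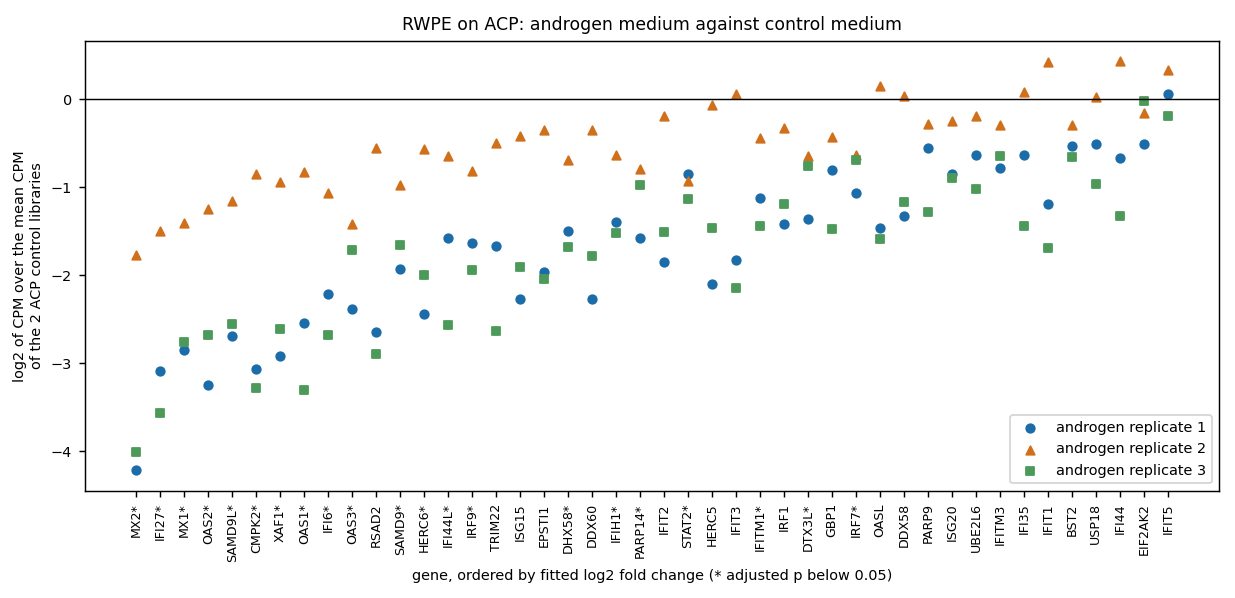
For each member (x axis, ordered by fitted log2 fold change), the log2 ratio of its CPM in each of the 3 RWPE androgen libraries on ACP to the mean of the 2 control libraries on ACP (y axis). Most circles and squares (libraries 1 and 3) lie below the triangles (library 2), and the triangles cross the line of no change at the right.

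The 3 androgen libraries of RWPE differed in how far the set was lowered. Library 2 was the highest of the 3 in 42 of 44 members, against 26.1% of 12793 genes with a mean of at least 1 CPM. The median member stood at 33.4% of its control mean in library 1, 72.1% in library 2 and 32.6% in library 3, while the median gene stood at 96.3%, 96.2% and 101%. All 3 libraries lay below both controls in 35 of 44 members, against 25.6% of genes. Without library 2 the number of members that fell was 40, while genes called went from 2730 to 2008. Without library 1, 14 members and 1066 genes were called. Without either of the 2 control libraries 0 members and 0 genes passed the test, with medians over the members of −1.12 and −1.01, and here the lone control is assumed to vary like the other groups.

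Basal epithelial markers moved with the members in RWPE. KRT14 measured 5341 and 4224 CPM in control medium and 912, 4174 and 688 CPM with androgen, and KRT5 10152 and 8094 CPM against 2348, 6631 and 3059.8 CPM, with library 2 the highest androgen library for both. The summed level of the 3 basal markers KRT5, KRT14 and TP63 ranged from 12537 to 15698 CPM in control medium and from 3348 to 10954 CPM with androgen, and none was at 0. KRT5 (−1.16 ± 0.36) and TP63 (−0.82 ± 0.22) fell, KRT14 did not pass the test (−1.28 ± 0.60), and their part in the result was not tested. The labels give the androgen libraries letters and the control libraries numbers, and whether they were prepared together is not given in the sources used here.

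In VCaP on ACP, androgen medium was compared with stripped medium, which by the protocol differ in the androgen. Of 43 members tested 3 rose and 0 fell, against 17.5% of 15614 genes called and 8.67% called higher. The change was positive in 37 of 43, with a median of 0.99 (all genes −0.03). GBP1, a GTPase induced mainly by interferon gamma, measured 0.0975 and 0.0820 CPM in stripped medium and 2.29 and 5.39 CPM with androgen (5.36 ± 0.83, adjusted p = 0.00384). IRF7, the factor that amplifies type I interferon transcription, measured 25.8 and 19.1 CPM against 33.7 and 55.8 CPM (1.00 ± 0.28, adjusted p = 0.0364). IFI27 measured 0.244 and 0.328 CPM against 0.563 and 11.8 CPM (4.41 ± 1.32, adjusted p = 0.0454). The groups did not overlap for these 3 genes, and GBP1 was high in both androgen libraries.

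For most other members the 2 androgen libraries of VCaP stood far apart. MX1 measured 1.30 and 61.3 CPM in libraries 1 and 2, with 5.997 and 3.48 CPM in stripped medium. IFIT1 measured 0.865 and 34.6 CPM with androgen and 2.10 and 2.05 CPM in stripped medium. IFI6 measured 6.10 and 119 CPM against 12.5 and 5.94 CPM. For these 3 genes library 2 was above all other VCaP libraries, and library 1 was not above the higher stripped library. ISG15 measured 13.1 and 86.7 CPM against 13.0 and 11.4 CPM. OAS1 measured 10.8 and 72.0 CPM against 20.7 and 13.6 CPM. RSAD2, the antiviral enzyme viperin, measured 0.389 and 16.1 CPM against 1.37 and 1.19 CPM, again with the high value in library 2.

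Library 2 exceeded library 1 in 38 of the 40 members whose mean over both libraries reached 1 CPM, and by more than 2-fold in 30, with a median ratio of 3.58. Over all genes 1.79% were more than 2-fold higher in library 2. Library 2 was the highest of the 9 VCaP libraries in 28 of 35 members with a mean of at least 1 CPM over the line, against 16.8% of genes. Both counts include members that passed the filter only through library 2, such as OAS2 (0.130 and 8.67 CPM). Such members had to count as higher there, so the counts describe the gap and do not test it. STAT2 (51.0 and 29.1 CPM) and EPSTI1 (2.12 and 0.920 CPM) were lower in library 2, and HERC5 (10.4 and 10.9 CPM) and IFIT5 (14.3 and 17.9 CPM) were close in both. Without library 2 the median change over the members was −0.64 and GBP1 was the 1 member called, with 766 genes against 2727 in the full fit. Without library 1, 17 members, all higher, and 1334 genes were called. Without stripped library 1 or 2, 1 member was called, with 891 and 2318 genes. GBP1 kept its call in all 4 of these fits, at 4.61 to 5.87.

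**Figure D4:**
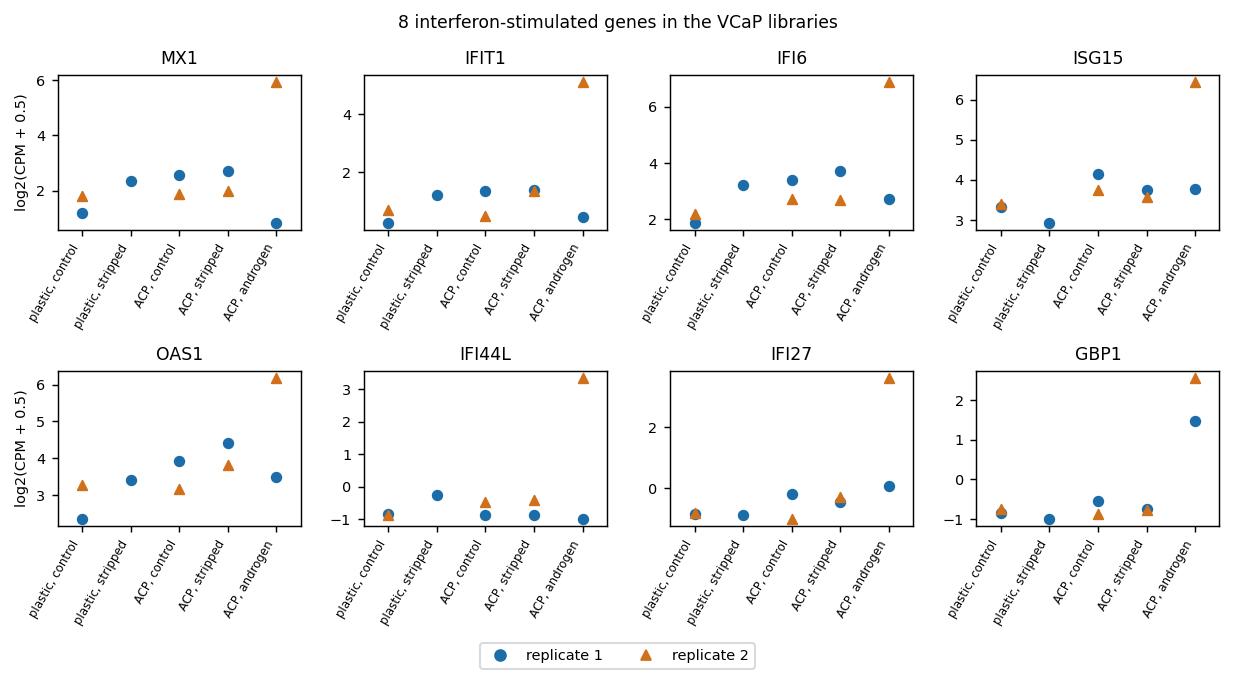
Levels of 8 members in the VCaP groups, as log2(CPM + 0.5), with replicate 1 as circles and replicate 2 as triangles; each panel has its own y axis and the plastic stripped group has 1 library. In 7 panels the androgen triangle lies far above the androgen circle and all other points, and for GBP1 both androgen points lie above the rest.

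Other measures of these 2 VCaP libraries stand beside this gap. No read of IFNA1, IFNB1, IFNG or IFNL1 was counted in either. KLK3, an androgen-induced gene, measured 3446 and 840.1 CPM in libraries 1 and 2, against 36.1 and 120.2 CPM in stripped medium. Basal markers that mark RWPE were low: KRT5 measured 4.41 and 12.4 CPM, and in library 2 it was 0.122% of the highest RWPE library. On the same measure the members in library 2 ran from 0.862% (OASL) to 229% (USP18), with IFITM1 at 2.04%, BST2 at 2.39% and MX1 at 67.7%. The summed level of 10 leukocyte markers was 82.9 to 156 CPM with androgen and 8.03 to 14.1 CPM in stripped medium, and CD3E, CD3D and TYROBP were among those at 0 in both androgen libraries. LYZ made up nearly all of that sum, at 81.2 and 154 CPM with androgen, and was high in both libraries, unlike most members. A cause for the gap between the libraries was not tested.

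In LNCaP and MDAPCa2a no member was called with androgen by edgeR in the fit of all libraries. In LNCaP on ACP 0 of 42 members were called by edgeR, against 7.73% of genes, with 6 at an unadjusted p below 0.05 and 0 called by DESeq2. Without a count filter 4 LNCaP members were called, 2 higher and 2 lower. The share of all genes called in that fit is not given here, so this count is not a result about the members. The median change was −0.13 in the full fit, and −0.10 and −0.22 without androgen library 1 and 2. MX1 measured 3.75 and 3.61 CPM in stripped medium and 3.14 and 3.00 CPM with androgen, and ISG15 67.5 and 64.7 CPM against 56.1 and 59.7 CPM. In MDAPCa2a 0 of 32 members were called by edgeR or DESeq2, with 1 at an unadjusted p below 0.05 in edgeR, and 0% of all genes were called, so that comparison called nothing in general. ISG15 there measured 23.7 and 26.1 CPM in stripped medium and 23.8 and 24.8 CPM with androgen.

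The difference of androgen effects between lines was tested directly in all libraries. Between VCaP and LNCaP the median difference over the members was 1.03 (all genes −0.05), and it was −0.66 without VCaP androgen library 2. In the full fit 4 of 44 members had a higher effect in VCaP (OAS2, IFI6, IFI27 and GBP1) and 0 a lower one, against 10.9% of genes. Each of these 4 lost its call in 4 or more of 8 fits with 1 library left out. Between MDAPCa2a and LNCaP 0 of 44 members differed by edgeR or DESeq2, with 0 at an unadjusted p below 0.05 in edgeR, against 1.12% of genes.

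The calcium phosphate surface was compared with plastic at matched medium. In LNCaP in stripped medium 4 of 42 members were higher on ACP and 0 lower, against 6.12% of genes called and 4.32% called higher, with a median of 0.44 over the members. OAS1 measured 1.80 and 1.89 CPM on plastic and 6.11 and 5.81 CPM on ACP (1.73 ± 0.29, adjusted p = 0.00823). ISG20, an exonuclease that degrades single-stranded RNA, rose from 21.3 and 14.3 CPM to 50.6 and 37.1 CPM (1.33 ± 0.27). IFIT1 rose from 2.21 and 2.35 CPM to 4.30 and 5.36 CPM (1.12 ± 0.27), and IFI35 from 14.5 and 12.5 CPM to 27.9 and 20.7 CPM (0.88 ± 0.22). None of these 4 overlapped between surfaces. With 1 library left out, ISG20, IFIT1 and IFI35 lost their call in all 4 fits and OAS1 in 3 of 4.

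In LNCaP in control medium 7 of 42 members were higher on ACP and 0 lower, against 12.6% of genes called and 6.74% called higher. They were IFIT3 (1.57 ± 0.36), OAS1 (1.42 ± 0.28), IFI44 (1.23 ± 0.25), IFIT1 (1.14 ± 0.27), ISG15 (0.99 ± 0.17), IFIH1 (0.93 ± 0.25) and IFITM3 (0.87 ± 0.25). OAS1 measured 2.43 and 1.83 CPM on plastic and 4.04 and 6.64 CPM on ACP, and with IFIT1 it was called in both media. ISG15 measured 30.7 and 31.2 CPM on plastic and 51.0 and 63.6 CPM on ACP, without overlap. ACP library 2 was the highest of the 10 LNCaP libraries in 16 of 34 members, against 5.97% of genes, and IRF1, an activator of many of these genes, measured 3.29 and 17.8 CPM in the 2 ACP libraries. Over the members the median change was 0.53 in the full fit. In fits with 1 library left out it was 0.33 without ACP library 2, and 0.72 and 0.52 without plastic library 1 and 2. ISG15 and OAS1 lost their call in 2 of 4 such fits and the other 5 genes in 3 of 4.

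The other surface comparisons called no member by edgeR. In RWPE in control medium 0 of 44 members were called, against 4.16% of genes, with 6 at an unadjusted p below 0.05, 1 called by DESeq2 and 7 called with the replicate number as a block. MX1 measured 87.8 and 90.6 CPM on plastic and 79.6 and 78.1 CPM on ACP. In VCaP in control medium 0 of 43 were called by either tool (0.0448% of genes), with 0 at an unadjusted p below 0.05 in edgeR and a median of 0.65 over the members. In MDAPCa2a in stripped medium 0 of 32 were called by either tool (0.00734% of genes), with 6 at an unadjusted p below 0.05 in edgeR.

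Stripped against control medium moved few members. In LNCaP GBP1 fell on ACP, from 0.858 and 2.63 CPM to 0.323 and 0.315 CPM (−2.44 ± 0.60, adjusted p = 0.0411; 1 of 42 members and 5.37% of genes). On plastic GBP1 fell as well, from 0.697 and 0.728 CPM to 0.128 and 0.0510 CPM, while ISG15 (0.97 ± 0.17) and IFI44 (0.87 ± 0.25) rose (3 of 42 members and 9.45% of genes). The GBP1 levels were low throughout and did not overlap on either surface. With 1 library left out, GBP1 on ACP lost its call in 3 of 4 fits (adjusted p up to 0.252), and it was not called without the plastic control libraries. On plastic ISG15 lost its call in 3 of 4 such fits, IFI44 in all 4 and GBP1 in at least 3. In VCaP on ACP 0 of 43 members were called by edgeR or DESeq2 (0.820% of genes), with 1 at an unadjusted p below 0.05. In MDAPCa2a on plastic 0 of 32 were called by edgeR (1.58% of genes), with 12 at an unadjusted p below 0.05 and 2 called by DESeq2.

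The other genes of the pathway were read from a list of ligands, receptors, signalling and sensing proteins and inhibitors, of which 32 were in the table. Ligand reads were scarce. IFNL1, a type III interferon, was counted in all 7 RWPE libraries, and measured 1.02 and 0.584 CPM on ACP in control medium and 0.250, 0.881 and 0.226 CPM with androgen, where library 2 was again the highest of the 3. That level rests on 4, 15 and 5 reads in the androgen libraries. IFNB1 reached 0.102 CPM at most in RWPE, IFNA1 0.0681 CPM, and IFNG had no read in any library.

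The lines differed in receptors and kinases. JAK1 ranged from 43.4 to 108 CPM in RWPE and 33.1 to 68.5 CPM in VCaP, against 1.31 to 4.59 CPM in LNCaP and 3.43 to 5.98 CPM in MDAPCa2a. It was lower than in RWPE on ACP with androgen by −4.74 ± 0.32 in LNCaP (adjusted p = 3.82e-12), −3.60 ± 0.30 in MDAPCa2a (2.05e-10) and −0.63 ± 0.25 in VCaP (0.0307). IFNLR1, the private chain of the type III receptor, ranged from 8.45 to 19.4 CPM in RWPE and did not exceed 0.0979 CPM in LNCaP. MB21D1, the DNA sensor cGAS, ranged from 23.1 to 39.1 CPM in RWPE and did not exceed 0.410 CPM in the cancer lines. Its partner TMEM173 (STING) ranged from 19.7 to 35.96 CPM in RWPE and 11.3 to 21.7 CPM in MDAPCa2a, against at most 5.36 CPM in LNCaP and VCaP. IFNAR1 ran the other way, with its lowest levels in RWPE, 36.6 to 48.1 CPM, and its highest in VCaP, 161 to 307 CPM.

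**Figure D5:**
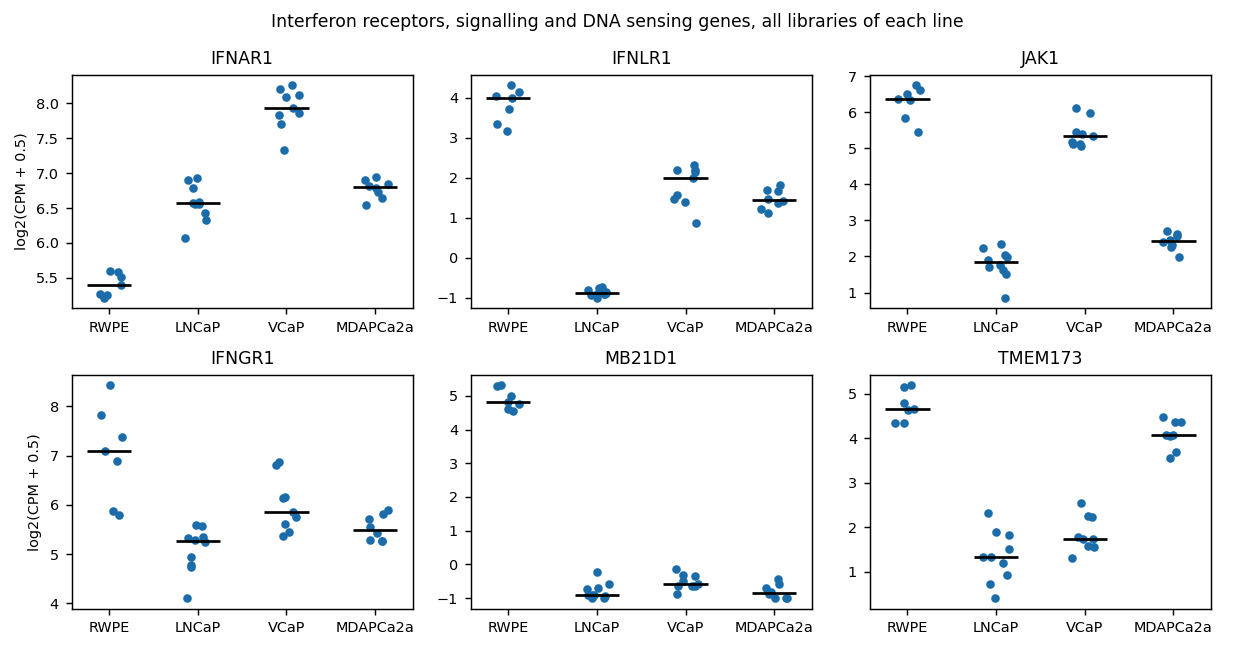
Levels of 6 pathway genes in all libraries of each line, as log2(CPM + 0.5), with a bar at the median of the line; points are spread sideways for visibility. JAK1 is high in RWPE and VCaP and low in LNCaP and MDAPCa2a, MB21D1 is high in RWPE, and IFNAR1 is lowest in RWPE.

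With androgen medium in RWPE, 9 of the 26 pathway genes tested were called, 6 lower and 3 higher, against 19.1% of all genes. Among the lower ones, MYD88, the adaptor of most Toll-like receptors, fell from 20.3 and 19.6 CPM to 10.4, 9.87 and 10.6 CPM (−0.93 ± 0.16), by a like amount in all 3 libraries. TMEM173 (−0.72 ± 0.16), TYK2 (−0.57 ± 0.15), the adaptor TICAM1 (−0.61 ± 0.17) and the inhibitor SOCS3 (−1.41 ± 0.34) fell. IFNGR1, the ligand-binding chain of the interferon gamma receptor, rose from 119 and 135 CPM to 343, 226 and 166 CPM (0.97 ± 0.28), and MB21D1 (0.61 ± 0.19) and the phosphatase PTPN2 (0.62 ± 0.17) also rose. In VCaP with androgen 3 of 23 were called, fewer than the 17.5% of all genes, IFNGR1 (0.69 ± 0.20) and IL10RB (0.81 ± 0.19) higher and SOCS3 (−2.62 ± 0.58) lower. For IFNGR1 the 2 VCaP androgen libraries measured 111 and 117 CPM against 71.2 and 69.7 CPM in stripped medium.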

How the data were processed

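The deposited table holds raw counts of reads for each gene symbol, with no scaling by the authors. STAR, HTSeq and hg19 are named in the submitters' processing notes. The annotation used, and whether reads were counted by strand, is not given in the sources used here, so antisense or overlapping genes and near-identical copies among the IFIT, IFITM and OAS families could share reads. Column names gave the sample. Counts were tested with edgeR 4.0.16 in R 4.3.3 (quasi-likelihood F test, TMM, filterByExpr with a minimum count of 10), within a line on that line's libraries and between lines on all 34, and p-values were Benjamini-Hochberg adjusted over all genes tested (threshold 0.05). SE is the log2 change over the square root of F. The spread was estimated on 4 or 5 residual degrees of freedom in a single line and on 17 over all libraries.

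The members and lists were chosen with earlier results of these data known. Statistics are given for up to 8 called members per comparison with a mean of at least 1 CPM, and any member may be named with levels. The 2 RWPE plastic control columns hold values of the size of spreadsheet dates, in 0 members. Alternatives were RLE size factors, no count filter, DESeq2 1.42.0, a replicate block, leaving out each library and, chosen after seeing the data, a fit without plastic control libraries. The test was tried on simulated counts. Some results on genes outside the 44 are not reported here.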

Additional observations from a re-analysis of the deposited data

Results flagged for a closer look

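The androgen effect on ACP (androgen minus stripped medium) differed between VCaP and LNCaP for 4 members in edgeR's test of the difference itself. The same test called 10.9% of all genes, so the share of members called was not above that of genes in general. The difference in log2 effect was 4.86 ± 1.59 for OAS2 (adjusted p = 0.0494), 3.31 ± 0.98 for IFI6 (0.0296), 5.80 ± 1.59 for IFI27 (0.0191) and 3.61 ± 1.04 for GBP1 (0.0257). OAS2 measured 0.130 and 8.67 CPM in VCaP androgen libraries 1 and 2, with 0.0975 and 0.287 CPM in stripped medium. In LNCaP it measured 0.453 and 0.490 CPM in stripped medium and 0.207 and 0.490 CPM with androgen. IFI6 and IFI27 were likewise higher in VCaP library 2 than in library 1, and GBP1 was high in both. Without VCaP library 2 the difference was −0.20 for OAS2, −0.069 for IFI6, 2.33 for IFI27 (adjusted p = 0.448) and 2.85 for GBP1 (0.121), and none was called. Over 8 fits with 1 library left out, the call was lost in 7 for OAS2, 5 for IFI6, 4 for IFI27 and 6 for GBP1.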

How the results depend on the processing

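Numbers of members called are given below. A setting can also change how many of all genes are called, and those numbers are not given beside the counts. The counts therefore show how far the calls depend on the processing and are not results about the members. Without a count filter they were 4 for androgen in LNCaP, 14 for androgen in VCaP, 7 for stripped against control medium on ACP in LNCaP and 1 in VCaP, 10 for ACP against plastic in stripped LNCaP and 2 in stripped MDAPCa2a, 1 in RWPE and 14 in LNCaP in control medium, 7 for stripped against control medium on plastic in LNCaP and 4 in MDAPCa2a, and 10 for the VCaP and LNCaP androgen difference. DESeq2 gave 6 for stripped against control medium on ACP in LNCaP, 1 for the surface in RWPE, 2 for stripped medium on plastic in MDAPCa2a and 8 for the VCaP and LNCaP androgen difference. The fit without plastic control libraries, chosen after seeing the data, gave 0 for stripped against control medium on ACP in LNCaP, 2 for the surface in stripped LNCaP and 2 for the androgen difference. With the replicate block the counts were 31 for androgen in RWPE, 4 for stripped against control medium on ACP in LNCaP, 7 for the surface in RWPE and 7 for the androgen difference. The labels do not say that a replicate number marks a shared culture or day. Deviations of same-numbered libraries correlated from −0.50 to 0.60 over 25 pairs of groups, so the numbers were not taken to pair libraries, and a shared batch in single pairs was not tested. The cause of these moves was not tested.

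Leaving out 1 library, with a lone library assumed to vary like the other groups, gave 0 to 40 members for androgen in RWPE, 0 to 2 in LNCaP and 1 to 17 in VCaP. It gave 0 to 2 for stripped against control medium in LNCaP on ACP and on plastic, and 0 to 2 for the surface in stripped LNCaP and in stripped MDAPCa2a. In control LNCaP the surface gave 0 to 8. On ACP with androgen it gave 15 to 33 for VCaP against LNCaP, 12 to 18 for MDAPCa2a against LNCaP and 14 to 40 for VCaP against MDAPCa2a. On plastic MDAPCa2a against LNCaP gave 9 to 12, and the androgen difference of VCaP and LNCaP 0 to 18. The log2 difference of VCaP against LNCaP ran from −6.68 to 4.41 for IFI44L, −1.26 to 4.32 for MX1 and −1.42 to 4.61 for OAS2. That of VCaP against MDAPCa2a ran from −2.82 to 10.08 for IFI44L, and the androgen difference of VCaP and LNCaP from −0.069 to 4.24 for IFI6 and −0.20 to 5.85 for OAS2. In all 6 the negative value was the fit without VCaP androgen library 2. For IFI44L, VCaP androgen library 1 had 0 reads, so its negative values here are fitted to a count of 0 and do not measure the size of a difference. Of 138 named changes, DESeq2 kept the call of 133, RLE size factors 137, no filter 138 and the block 137. Among the changes it covered, the fit without plastic control libraries kept the call of 74 and lost that of 7. This tally does not cover the fits with 1 library left out, in which calls were lost more often and 6 changes reversed sign.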
